A study of Mus musculus with 24 samples.

Results

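The genes described here are 10 transcriptional targets of the tumour suppressor p53: Mdm2, Cdkn1a, Ccng1, Bax, Perp, Aen, Eda2r, Trp53inp1, Sesn2 and Zmat3. They were chosen by name from the 55401 entries of a gene count table, and all 10 were among the 17144 genes that passed the filter on low counts. The table holds RNA-seq of CJ9 mouse embryonic stem cells, wild-type or Setd3 knock-out, at days 0, 2, 3 and 4 of a differentiation toward endoderm, with 3 libraries in each of 8 groups and 24 in all. The study asks how Setd3, which encodes a histidine methyltransferase of actin, acts in this differentiation. Day 0 cells of both genotypes had been kept with LIF on mitotically inactivated mouse embryonic fibroblasts (feeders). Cells were then taken off the feeders, held without serum for 2 days and moved as single cells into the same medium with Activin A, so days 3 and 4 are the first and second day of Activin A. The knock-out was made with CRISPR-Cas9 and is a single line, so a property of that line cannot be told apart from the loss of Setd3. The labels do not say that replicates were separate cultures, so p-values measure only the spread between these libraries, which may be technical.

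p53, encoded by Trp53, is a transcription factor that is held low by the ubiquitin ligase Mdm2 and is stabilised by DNA damage and other stress. It binds pairs of a short decamer in or near its target genes. The targets stop the cell cycle (Cdkn1a), promote cell death (Bax, Perp, Aen, Eda2r, Trp53inp1), adjust metabolism and antioxidant defence (Sesn2), or feed back on p53 (Mdm2). Mouse embryonic stem cells contain much p53, and p53 is known to repress Nanog when they differentiate. The p53 family is also known to act on Wnt3 at the onset of mesendoderm formation.

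The promoter windows of the members are shown because a p53 decamer is the sequence feature that these genes would share. RefSeq windows on GRCm38.p6, from 250 bases before to 50 bases after a start site, were held for 7 of the 10 genes, and Perp, Trp53inp1 and Zmat3 had none in the table used. The p53 consensus decamer, a palindrome that reads the same on both strands, was present without a mismatch in windows of 5 of these 7 genes, against 9.55% of all 27025 genes with a window (8.36% of 32851 windows). A pair of decamers with a spacer of at most 13 bases and at most 1 letter off the consensus was present for 3 of the 7 genes, against 1.24% of all genes (1.09% of windows). Each sequence below is written 5′ to 3′ on the strand of its gene with 10 flanking bases, and capitals mark the decamers.
Cdkn1a, chr17:29090896-29090957, plus strand: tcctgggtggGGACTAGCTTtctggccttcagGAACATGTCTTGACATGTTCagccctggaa
Ccng1, chr11:40755452-40755491, minus strand: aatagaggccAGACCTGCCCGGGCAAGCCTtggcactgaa
Bax, chr7:45467080-45467120, minus strand: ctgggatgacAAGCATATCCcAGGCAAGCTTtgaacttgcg
Mdm2, chr10:117710925-117710954, minus strand: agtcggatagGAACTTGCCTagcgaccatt
Aen, chr7:78895927-78895956, plus strand: agccgaagccGGGCTTGTCCgggcaaggag
Cdkn1a has 2 overlapping pairs that share the decamer GAACATGTCT, in the window of 1 of its 2 start sites. With GGACTAGCTT the spacer is 12 bases and 0 letters are off, and with TGACATGTTC the spacer is 0 bases and 1 letter is off. The Ccng1 pair has a spacer of 0 bases and the Bax pair a spacer of 1 base, each with 1 letter off. For Mdm2 and Aen no pair was found in the windows, and the first decamer without a mismatch is shown. For Eda2r and Sesn2 these letters were not in the window. A match is a description of the sequence, and binding was not measured.

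Library totals were 18531390 to 24244958 counts, and no pair of libraries had identical counts. Setd3 itself was lower in the knock-out at days 0 to 4 (-1.40 to -2.05, log2) but was still counted there, at 124 ± 3.71 CPM (gene counts made comparable between libraries by their TMM-scaled totals) in wild-type and 29.9 ± 1.01 CPM in knock-out libraries at day 4 (mean ± SD, n = 3). The cells carried stem cell markers at day 0, with a sum over 8 markers of 3733 to 3782 CPM in wild-type and 3501 to 3843 CPM in knock-out libraries. Of these markers Sox2, which embryonic stem cells are known to express, is listed at 0 in all 24 libraries, so a 0 in this table cannot be read as absence. At day 4 the sum over 6 definitive endoderm markers was 1584 to 1855 CPM in wild-type and 68.4 to 169 CPM in knock-out libraries, and the stem cell marker sum was 203 to 324 and 738 to 776 CPM. Of 5 neuroectoderm markers, Sox1, Neurod1 and Tubb3 are also listed at 0 throughout, and nearly all of the rest was Nes, with a mean of 115 CPM in wild-type and 396 CPM in knock-out cells at day 4. The sum over 6 mesoderm markers was 124 to 235 and 4.14 to 8.61 CPM. The marker content already differed before Activin A. At day 0 the sum over 5 primitive streak markers was 47.1 to 76.1 CPM in wild-type and 6.09 to 7.45 CPM in knock-out libraries, and that of the endoderm markers 11.4 to 18.6 and 2.67 to 3.72 CPM. At day 2 the stem cell marker sum was 462 to 567 and 814 to 884 CPM and the endoderm sum 16.2 to 31.5 and 2.11 to 3.14 CPM. Genotype comparisons at each day therefore set cell populations of different marker content side by side. The part of these differences in the values of the p53 targets was not tested, and in bulk RNA fewer cells of a type and less RNA per cell cannot be told apart.

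Every member was expressed in all 24 libraries. Per kilobase of exon, Ccng1 had the highest level (mean 148.7 CPM per kb over all libraries), followed by Bax (71.3), Trp53inp1 (41.6), Sesn2 (39.4), Mdm2 (38.8), Cdkn1a (26.6), Aen (24.1), Perp (16.2) and Zmat3 (14.4). Eda2r had the lowest level, with group means from 7.55 ± 0.903 to 17.5 ± 0.895 CPM per kb (SD, n = 3). Perp varied most between groups, 4.75-fold from the lowest to the highest group mean. Eda2r spanned 2.32-fold, Sesn2 2.30-fold, Cdkn1a 2.25-fold and Mdm2 1.77-fold. Zmat3 spanned the least, 1.28-fold. Within a group of 3 libraries, the coefficient of variation of a member had a median of 5.97% over the 80 combinations of gene and group. Its highest value was 33.6%, for Cdkn1a in knock-out cells at day 0.

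**Figure D1:**
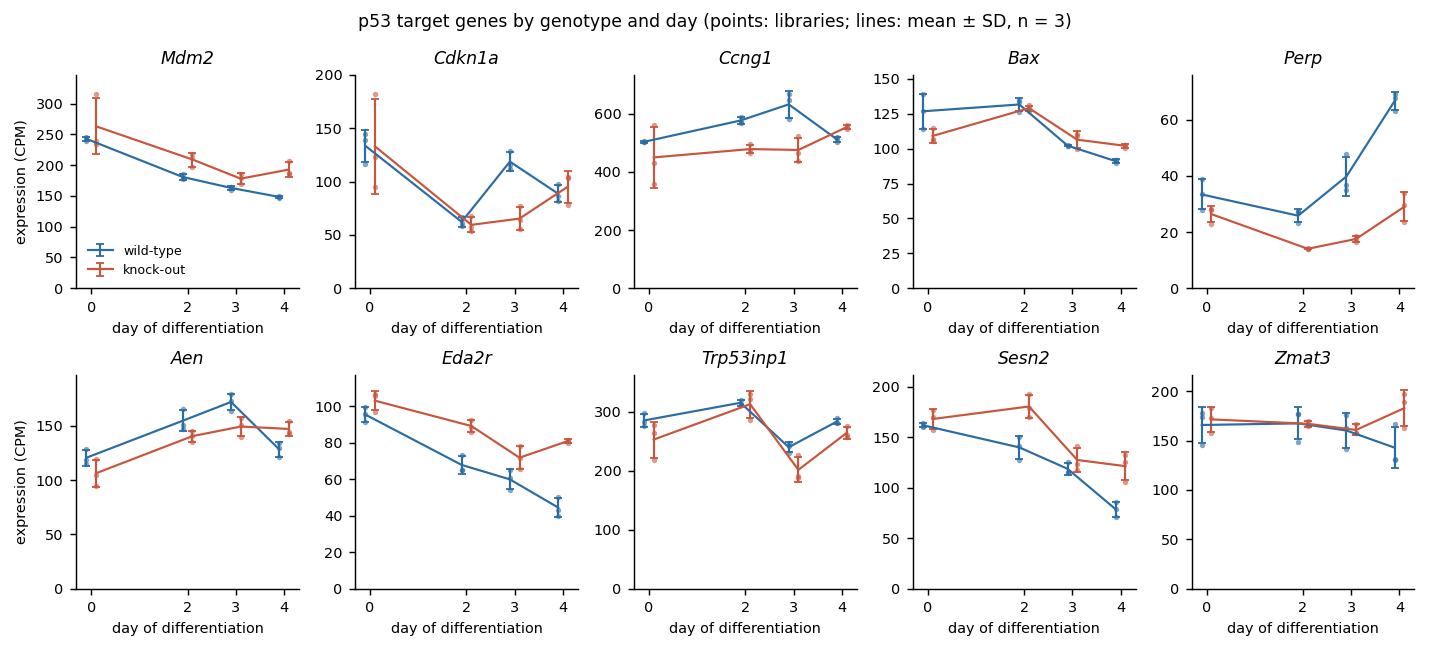
Expression of each p53 target gene (CPM, y axis from 0) against the day of differentiation, with wild-type in blue and knock-out in red; points are libraries and lines join group means with their SD (n = 3). Cdkn1a separates at day 3, Perp from day 2 on, and Eda2r and Sesn2 most at day 4.

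Mdm2 (chr10:117688875-117710758, minus strand, GRCm38), the ubiquitin ligase that marks p53 for degradation and is itself a p53 target, had its highest level at day 0 in both genotypes and its lowest in wild-type cells at day 4. Its 3 wild-type libraries had 246, 239.9 and 242 CPM at day 0, 186, 177 and 179 CPM at day 2, 165, 165 and 159 CPM at day 3 and 147, 148 and 151 CPM at day 4. The knock-out libraries had 316, 239 and 235 CPM at day 0, 219, 212 and 196 CPM at day 2, 179, 169 and 186 CPM at day 3 and 206, 186 and 187 CPM at day 4. From day 2 on, every knock-out library lay above every wild-type library of the same day. The difference, given throughout as the log2 fold change ± its error from edgeR's quasi-likelihood test, was 0.21 ± 0.074 at day 2 with an adjusted p of 0.0337. It was 0.13 ± 0.075 at day 3 with 0.179, not past the threshold of 0.05, and 0.38 ± 0.075 at day 4 with 1.42e-04. The call at day 2 was lost when any of 4 of its 6 libraries was left out, with adjusted p up to 0.121 without knock-out replicate 1. At day 3 the difference passed with only the groups compared (0.12, adjusted p = 0.0458). The fall from day 0 to day 2 was -0.43 ± 0.074 in wild-type and -0.33 ± 0.074 in knock-out cells, and both passed the test, the second not with only the groups compared (adjusted p = 0.0548).

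Cdkn1a (chr17:29090976-29100727, plus strand), which encodes the cyclin-dependent kinase inhibitor p21, separated the genotypes at day 3. At day 2 the wild-type libraries had 67.2, 61.2 and 58.3 CPM and the knock-out libraries 67.4, 57.1 and 53.8 CPM, and the groups overlapped. At day 3 the wild-type libraries had 128, 112 and 116 CPM and the knock-out libraries 63.5, 55.3 and 77.0 CPM, so all 3 knock-out libraries lay below all 3 wild-type libraries. At day 4 they had 82.0, 86.5 and 97.5 CPM and 104, 77.9 and 104 CPM and overlapped again. The difference at day 3 was -0.86 ± 0.19 (adjusted p = 0.00125), 1.82-fold lower in the knock-out. It was -0.067 ± 0.19 at day 2 with an adjusted p of 0.826 and 0.10 ± 0.19 at day 4 with 0.671, neither past the threshold. In wild-type cells Cdkn1a rose by 0.93 ± 0.19 from day 2 to day 3 (adjusted p = 6.71e-04). In knock-out cells the same step was 0.14 ± 0.19 (adjusted p = 0.644). The test of the difference between these 2 steps gave -0.80 ± 0.27 and did not pass (adjusted p = 0.067). It passed without knock-out day 3 replicate 3 (-0.93, adjusted p = 0.0456), in a fit of only the 4 groups compared (-0.78, adjusted p = 0.0108) and in the DESeq2 Wald test (-0.78, adjusted p = 0.0153). From day 3 to day 4 the wild-type value was -0.42 ± 0.19 and the knock-out value 0.54 ± 0.19, neither past the threshold (adjusted p = 0.0741 and 0.0698), while the difference between the 2 steps was 0.97 ± 0.26 and passed (adjusted p = 0.0123). The wild-type step passed in the DESeq2 Wald test (adjusted p = 0.0393) and with only the groups compared (adjusted p = 0.00241). The knock-out step passed in the DESeq2 Wald test (adjusted p = 0.0129) and without knock-out day 4 replicate 2 (adjusted p = 0.0462).

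Ccng1 (chr11:40748552-40755311, minus strand) encodes cyclin G1, a partner of protein phosphatase 2A that acts on Mdm2. At day 2 the wild-type libraries had 570.0, 589 and 569 CPM and the knock-out libraries 475, 494 and 465 CPM. The values at day 3 were 667, 579.8 and 647 CPM in wild-type and 465, 438 and 522 CPM in knock-out libraries. Knock-out libraries were the lower ones on both days without overlap, as they were for Cdkn1a at day 3. At day 4 the wild-type had 512, 519 and 502 CPM and the knock-out 553, 560.2 and 546 CPM, with the knock-out libraries now the higher ones. The difference was -0.27 ± 0.10 at day 2 with an adjusted p of 0.0477, -0.41 ± 0.10 at day 3 with 0.00272, and 0.11 ± 0.10 at day 4 with 0.359, which is not past the threshold. The call at day 2 was lost when any single library was left out (adjusted p 0.0751 to 0.13), when the filter on low counts was dropped (adjusted p = 0.113) and with a replicate block (adjusted p = 0.0516). The difference at day 4 passed with only the groups compared (0.12, adjusted p = 0.0339). The change from day 3 to day 4 differed between genotypes by 0.53 ± 0.14 (adjusted p = 0.0104).

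Bax (chr7:45461697-45466898, minus strand), a pore-forming member of the BCL2 family, had its largest genotype difference, -0.22 (log2), at day 0. It shares 192 exonic bases with the gene model Gm45808 on the same strand, which had 331 counts over all libraries against 56751 for Bax. Day 0 values were 139, 127 and 114 CPM in wild-type and 115, 107 and 105 CPM in knock-out libraries, and day 4 values were 89.6, 91.7 and 91.9 CPM and 103, 100.5 and 103 CPM. The groups overlapped at day 0, with wild-type replicate 3 below knock-out replicate 1, and did not overlap at day 4, where the knock-out was higher. The difference went from -0.22 ± 0.056 (adjusted p = 0.00677) at day 0 to 0.16 ± 0.056 (adjusted p = 0.0161) at day 4, with -0.029 and 0.059 at days 2 and 3, and the change over the course passed the test (0.38 ± 0.079, adjusted p = 4.89e-04). The day 0 call was lost with only the groups compared (adjusted p = 0.103). Bax fell from day 2 to day 3 in wild-type (-0.37 ± 0.056) and in knock-out cells (-0.28 ± 0.056).

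Perp (chr10:18845020-18857073, plus strand) encodes a tetraspan membrane protein that takes part in p53-dependent cell death and is a constituent of desmosomes in epithelia. It was the member with the largest genotype difference. At day 0 the wild-type libraries had 28.0, 33.4 and 38.7 CPM and the knock-out libraries 27.9, 23.0 and 28.2 CPM. At day 2 the values were 27.0, 27.3 and 23.2 CPM and 14.0, 13.9 and 14.2 CPM, and at day 3 47.7, 34.8 and 36.7 CPM and 17.7, 16.3 and 18.6 CPM. At day 4 they were 67.6, 69.1 and 63.1 CPM and 29.7, 23.5 and 33.8 CPM. The groups overlapped at day 0 only, and from day 2 on every knock-out library was below every wild-type library. The difference was -0.34 ± 0.13 at day 0 with an adjusted p of 0.0618, which did not pass, and -0.88 ± 0.14 at day 2 with 3.59e-05. It was -1.18 ± 0.13 at day 3 with 1.90e-07 and -1.20 ± 0.13 at day 4 with 3.07e-08, 2.30-fold lower in the knock-out. At day 0 it passed in the DESeq2 Wald test (adjusted p = 0.0496) and without wild-type replicate 1 (adjusted p = 0.0183). Perp fell from day 0 to day 2 in wild-type (-0.37 ± 0.13) and in knock-out cells (-0.91 ± 0.14). The wild-type call was lost without day 0 replicate 3 (-0.25, adjusted p = 0.113) or day 2 replicate 3 (-0.29, adjusted p = 0.0824). From day 3 to day 4 Perp rose by 0.74 ± 0.12 in wild-type and by 0.72 ± 0.13 in knock-out cells. The difference between these last 2 steps was -0.020 ± 0.18 (adjusted p = 0.966), and that over the course from day 0 to day 4 was -0.86 ± 0.18 (adjusted p = 5.95e-04).

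Markers of the wild-type's cell states also differed between genotypes on the days when Perp was lower. At day 3 the sum over 5 primitive streak markers was 817 to 1243 CPM in wild-type and 80.0 to 97.2 CPM in knock-out libraries, and at day 4 it was 891 to 1087 CPM and 199 to 346 CPM. The definitive endoderm sum at day 3 was 168 to 473 CPM against 6.58 to 8.20 CPM. At day 2, where Perp already differed, the streak sum was 18.1 to 36.2 CPM against 7.23 to 10.8 CPM. From day 3 to day 4 in wild-type cells the mean streak sum went from 1014 to 966 CPM and the mean endoderm sum from 299.7 to 1710 CPM. Mean Perp went from 39.8 to 66.6 CPM. In knock-out cells the mean streak sum went from 86.0 to 265 CPM and the mean endoderm sum from 7.21 to 110.2 CPM. Mean Perp there went from 17.5 to 29.0 CPM. No streak or endoderm marker was at 0 in wild-type libraries of days 2 to 4, and 1 of the 6 endoderm markers was at 0 in knock-out libraries of day 2. The part of these cells in the Perp values was not tested.

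Eda2r (chrX:97333840-97377216, minus strand), a receptor of the tumour necrosis factor receptor family whose ligand is ectodysplasin A2, declined in wild-type cells and less so in knock-out cells. The wild-type libraries had 99.3, 91.3 and 95.7 CPM at day 0, 65.1, 64.8 and 73.5 CPM at day 2, 64.9, 54.0 and 60.8 CPM at day 3 and 39.8, 43.3 and 50.3 CPM at day 4. The knock-out libraries had 107, 97.0 and 106 CPM at day 0, 86.1, 88.7 and 92.7 CPM at day 2, 71.4, 65.6 and 78.3 CPM at day 3 and 81.7, 79.9 and 81.1 CPM at day 4. Groups overlapped at day 0, and all knock-out libraries were above all wild-type libraries at each later day. The difference was 0.40 ± 0.078 at day 2 with an adjusted p of 3.86e-04, 0.26 ± 0.078 at day 3 with 0.00943, and 0.86 ± 0.079 at day 4 with 1.82e-09, 1.82-fold higher in the knock-out. The call at day 3 was lost without knock-out replicate 3 (adjusted p = 0.0743) or wild-type replicate 2 (adjusted p = 0.0735). From day 3 to day 4 Eda2r fell in wild-type cells (-0.43 ± 0.080), while the knock-out value was 0.17 ± 0.078 (adjusted p = 0.16), and the steps differed by 0.60 ± 0.11 (adjusted p = 2.62e-04).

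Aen (chr7:78895854-78911209, plus strand), a nuclease that digests DNA in dying cells, went from a lower level in the knock-out at day 3 to a higher one at day 4. At day 3 the wild-type libraries had 164, 173 and 179 CPM and the knock-out libraries 151, 139.9 and 157 CPM. At day 4 the wild-type libraries had 129.7, 121 and 134 CPM and the knock-out libraries 155, 142 and 144 CPM. The groups did not overlap on either day. The difference was -0.20 ± 0.069 at day 3 with an adjusted p of 0.0207 and 0.20 ± 0.070 at day 4 with 0.0185. Leaving out knock-out replicate 2, wild-type replicate 2 or wild-type replicate 3 ended the call at day 3 (adjusted p 0.0524 to 0.105). At day 4 it ended without knock-out replicate 1 (adjusted p = 0.0933) or wild-type replicate 2 (adjusted p = 0.0935). The day 3 to day 4 steps, -0.42 ± 0.069 in wild-type and -0.021 ± 0.069 in knock-out cells, differed by 0.40 ± 0.098 (adjusted p = 0.00366). Aen was the member that rose from day 0 to day 2 in wild-type cells (0.36 ± 0.070), and it rose in knock-out cells too (0.40 ± 0.070).

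Trp53inp1 (chr4:11156431-11174379, plus strand), a nuclear protein that promotes the pro-apoptotic phosphorylation of p53 and takes part in autophagy, moved in the same direction in both genotypes after day 2. Group means in wild-type cells were 285 ± 11.4 CPM at day 0, 315 ± 4.75 CPM at day 2, 239.7 ± 8.59 CPM at day 3 and 283 ± 5.00 CPM at day 4 (mean ± SD, n = 3). In knock-out cells they were 253 ± 30.5, 313 ± 23.0, 201 ± 21.2 and 264 ± 9.90 CPM. It fell from day 2 to day 3 and rose from day 3 to day 4 in each genotype: -0.39 ± 0.072 and 0.24 ± 0.072 in wild-type cells, -0.64 ± 0.072 and 0.39 ± 0.072 in knock-out cells. Its libraries were lower without overlap in the knock-out at day 3 (-0.25 ± 0.072, adjusted p = 0.00675). None of the 4 tests of a difference between genotypes in a step or over the course passed for it, with unadjusted p-values from 0.0260 to 0.482, but without knock-out day 3 replicate 3 the difference from day 2 to day 3 passed (-0.33, adjusted p = 0.0311).

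Sesn2 (chr4:132492032-132510501, minus strand) encodes sestrin 2, a stress-induced inhibitor of mTORC1 that is also a target of ATF4. At day 2 its wild-type libraries had 142, 128 and 151 CPM and its knock-out libraries 193, 170.3 and 179 CPM. Day 3 values were 115, 116 and 126 CPM and 123, 118 and 141 CPM, and day 4 values 71.4, 78.5 and 85.7 CPM and 132, 106 and 126 CPM. Knock-out libraries were above wild-type ones without overlap at days 2 and 4 and overlapped them at day 3. The difference was 0.37 ± 0.082 at day 2 with an adjusted p of 0.00132, 0.10 ± 0.082 at day 3 with 0.338, and 0.63 ± 0.083 at day 4 with 8.24e-07. In wild-type cells it fell in each step, with log2 fold changes of -0.21 ± 0.081, -0.24 ± 0.082 and -0.60 ± 0.083. The first of these calls was lost when any of 3 single libraries was left out (adjusted p up to 0.157, without wild-type day 2 replicate 2). The second was lost when any of 4 was left out (adjusted p up to 0.123, without wild-type day 2 replicate 3). In knock-out cells it fell from day 2 to day 3 (-0.50 ± 0.082) and had -0.071 ± 0.082 from day 3 to day 4 (adjusted p = 0.645). The last step differed between genotypes by 0.53 ± 0.12 (adjusted p = 0.00174).

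Zmat3 (chr3:32334792-32366014, minus strand), a zinc finger protein that binds RNA and regulates splicing, was the steadiest member. Its group means lay between 143 ± 20.8 CPM, in wild-type cells at day 4, and 183 ± 18.0 CPM, in knock-out cells at day 4 (SD, n = 3). None of its steps within a genotype passed the test, with unadjusted p-values of 0.0857 or more. From day 3 to day 4 the wild-type step passed without wild-type day 4 replicate 3 (-0.28, adjusted p = 0.0215). The knock-out step passed with only the groups compared (0.19, adjusted p = 0.0406). At day 4 the wild-type libraries had 131, 131 and 167 CPM and the knock-out libraries 189, 163 and 197 CPM, and they overlapped because wild-type replicate 3 was above knock-out replicate 2. The difference there was 0.36 ± 0.10 (adjusted p = 0.00615). The difference between genotypes in the step from day 3 to day 4 was 0.35 ± 0.15 and did not pass (adjusted p = 0.0898). It passed without that wild-type replicate 3 (0.47, adjusted p = 0.0106), without wild-type day 3 replicate 1 (adjusted p = 0.0352), without knock-out day 4 replicate 2 (adjusted p = 0.0440) and with a replicate block (adjusted p = 0.0277).

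Counted by day, most members past the test were lower in the knock-out at day 3 and higher at day 4. At day 0, 0 of 10 members were higher in the knock-out by edgeR, 0 at an unadjusted p under 0.05 and 0 by the DESeq2 Wald test, where 10.6% of all tested genes were higher. For 1 member, Bax, the level was lower (10.5% of all genes). At day 2, 3 were higher, namely Eda2r, Sesn2 and Mdm2 (16.2% of all genes), and 2 were lower, Perp and Ccng1 (15.7%). At day 3, 1 was higher, Eda2r (20.8%), and 5 were lower: Perp, Cdkn1a, Ccng1, Trp53inp1 and Aen (20.5%). At day 4, 6 were higher, namely Eda2r, Sesn2, Mdm2, Zmat3, Aen and Bax (26.3%), and Perp was lower (27.6%). The median log2 fold change of the 10 genes was -0.085, -0.020, -0.10 and 0.18 at days 0, 2, 3 and 4, against 0.0059, -0.0077, -0.0096 and -0.013 over all tested genes. The share of members higher at day 4 and lower at day 3 was above that of all genes, and 5 of the 6 genes higher at day 4 differed there by 1.55-fold or less. The members were chosen with earlier results of these data known, so these higher shares are a description only.

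**Figure D2:**
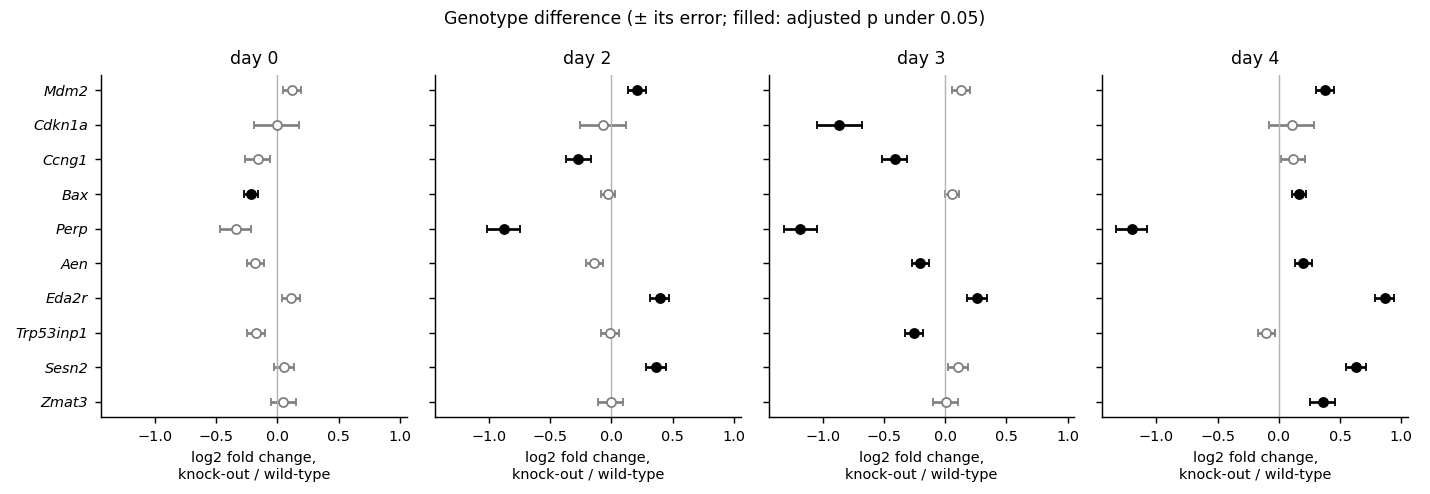
Log2 fold change of each member between knock-out and wild-type cells (x axis) at days 0, 2, 3 and 4, with its error as the bar; filled points have an adjusted p under 0.05. Cdkn1a and Ccng1 are low at day 3 and not at day 4, Perp is low from day 2, and Eda2r, Sesn2 and Mdm2 lie right of 0 at day 4.

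The members also moved within each genotype. From day 0 to day 2 in wild-type cells, 1 member rose (32% of all genes) and 5 fell (31.8%): Cdkn1a (-1.10 ± 0.19), Eda2r, Mdm2, Perp and Sesn2. In knock-out cells 3 rose over this step, Aen, Trp53inp1 and Bax (29.5% of all genes), and 4 fell, Cdkn1a, Perp, Mdm2 and Eda2r (30.6%). The loss of feeder cells falls in this step, as described for day 0 further on. From day 2 to day 3, with the first day of Activin A, 2 rose in wild-type cells, Cdkn1a and Perp (21.4%), and 3 fell, Trp53inp1, Bax and Sesn2 (21.1%). The wild-type fall of Eda2r did not pass here but passed in 5 of 11 alternatives, among them the DESeq2 Wald test (-0.20, adjusted p = 0.0449). With only the groups compared Mdm2 fell (-0.17, adjusted p = 0.0147), and without wild-type day 2 replicate 2 Aen rose (0.21, adjusted p = 0.0355). In knock-out cells 0 rose by edgeR (14.7% of all genes), with Perp at an unadjusted p under 0.05 and 0 by the DESeq2 Wald test, though Perp passed with only the groups compared (0.32, adjusted p = 0.00356), and 5 fell, Trp53inp1, Sesn2, Eda2r, Bax and Mdm2 (14.4%). In knock-out cells the fall of Eda2r from day 0 to day 2 and that of Mdm2 from day 2 to day 3 each lost the call when any of 4 single libraries was left out, with adjusted p up to 0.0718 (without knock-out day 0 replicate 1) and 0.0783 (without knock-out day 3 replicate 2).

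The genotype difference of Cdkn1a and Ccng1 was smaller in size at day 4 than at day 3. That of Eda2r, Sesn2 and Mdm2 was larger. Over the step from day 3 to day 4, the second day of Activin A, some members moved differently in each genotype. In wild-type cells 2 members rose, Perp and Trp53inp1 (22.4% of all genes), and 5 fell, Sesn2, Eda2r, Aen, Ccng1 and Bax (23.1%). The call of Ccng1 was lost without wild-type day 3 replicate 1 or 3 or day 4 replicate 3 (adjusted p 0.0557 to 0.0719), and that of Bax without day 4 replicate 1 (adjusted p = 0.0576). In knock-out cells Perp and Trp53inp1 rose too (5.76%), and 0 members fell (5.83%), also at an unadjusted p under 0.05 and by the DESeq2 Wald test. The steps differed between genotypes for 5 members, Cdkn1a, Eda2r, Sesn2, Ccng1 and Aen, each with the knock-out step above the wild-type step (23.8% of all genes, in either direction). For the earlier steps 0 differences passed. From day 0 to day 2 the share of all genes was 7.34%, with 4 members at an unadjusted p under 0.05 (Eda2r, Perp, Bax and Sesn2) and 0 by the DESeq2 Wald test. Without knock-out day 0 replicate 1 Mdm2 passed (adjusted p = 0.0404), and without wild-type day 0 replicate 3 Bax (adjusted p = 0.0381) and Perp (adjusted p = 0.0362) did. From day 2 to day 3 it was 10.9%, with 3 members at an unadjusted p under 0.05 (Cdkn1a, Trp53inp1 and Sesn2) and 1, Cdkn1a, by the DESeq2 Wald test. Over the course from day 0 to day 4 the change differed for Eda2r (0.75 ± 0.11), Sesn2 (0.57 ± 0.12), Bax (0.38 ± 0.079), Aen (0.38 ± 0.099) and Perp (-0.86 ± 0.18), where 36.7% of all genes differed. Mdm2 was near the threshold over this course (0.26 ± 0.10, adjusted p = 0.0533). It passed with DESeq2 size factors (adjusted p = 0.0380), without the filter on low counts (0.0456), with a replicate block (0.0290), in the DESeq2 Wald test (0.0436) and without knock-out day 0 replicate 1 (0.41, adjusted p = 5.94e-05). Without that last library Ccng1 passed too (0.47, adjusted p = 2.18e-04). Zmat3, at 0.31 ± 0.15 (adjusted p = 0.107), passed with a replicate block (adjusted p = 0.0365) and without wild-type day 0 replicate 1, wild-type day 4 replicate 3 or knock-out day 4 replicate 2 (adjusted p 0.00948 to 0.0497).

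**Figure D3:**
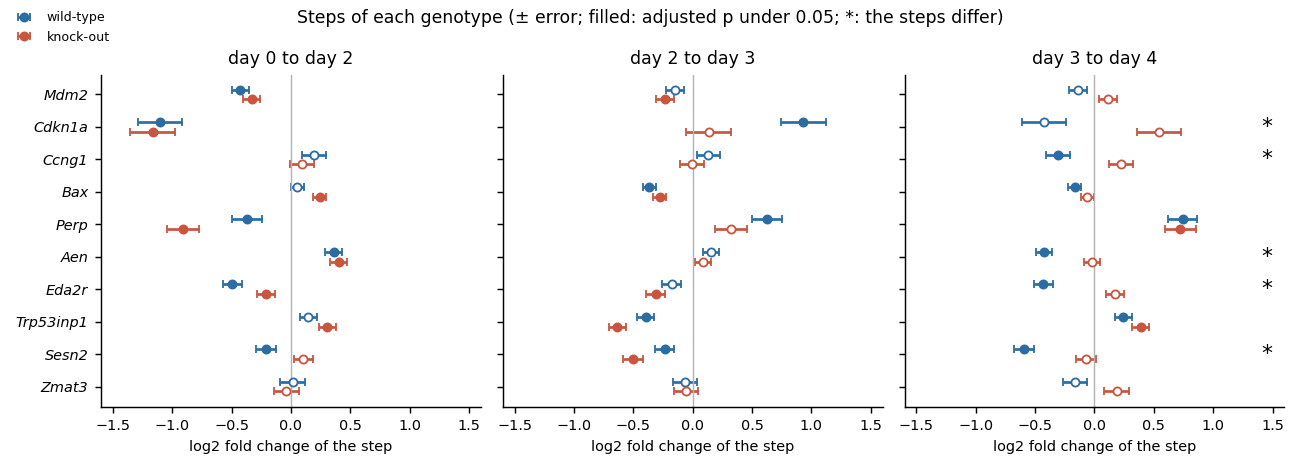
Log2 fold change of each member over the steps from day 0 to 2, 2 to 3 and 3 to 4 (x axis) in wild-type (blue) and knock-out (red) cells, with errors; filled points have an adjusted p under 0.05 and a star marks steps that differ between genotypes. The 5 stars all stand in the step from day 3 to day 4.

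At day 0 the libraries held RNA of feeder fibroblasts in unequal amounts, and some members followed its order, most of them in knock-out libraries only. The sum over 16 feeder markers was 1355, 2426 and 2086 CPM in the wild-type and 3485, 2601 and 1338 CPM in the knock-out libraries (replicates 1, 2 and 3). Cdkn1a had 117, 145 and 139 CPM in the wild-type and 182, 123 and 94.6 CPM in the knock-out libraries, and within each genotype its order was that of the feeder sum. Ccng1, with 561, 429 and 357 CPM, and Aen, with 119.5, 105 and 94.3 CPM, followed that order in the knock-out libraries, as did Bax and Mdm2, while Zmat3 had the reverse order there (158, 173 and 183 CPM). In the wild-type, Ccng1 had 502, 501 and 506 CPM, a narrow range, and Aen had 129, 115 and 119 CPM, in the reverse order of the feeder sum. Wild-type Mdm2 had 246, 239.9 and 242 CPM, also in the reverse order and in a narrow range. Wild-type Trp53inp1 (298, 275 and 282 CPM) and Eda2r (99.3, 91.3 and 95.7 CPM) had the reverse order too, and neither order in the knock-out. Bax (139, 127 and 114 CPM) and Zmat3 (145, 174 and 178 CPM) followed neither order in the wild-type. Perp and Sesn2 followed neither order in either genotype. With 3 libraries per genotype such an order is a description and was not tested. Mdm2 stood high in knock-out replicate 1 alone (316, 239 and 235 CPM), which also had the highest feeder sum. All 16 markers were above 1 CPM at day 0, and their sum was 101 to 125 CPM in wild-type and 114 to 210.2 CPM in knock-out libraries at day 2, and at most 87.5 CPM on later days.

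In a fit of the day 0 libraries with the feeder sum as a covariate, 0 members passed the test, with Bax at -0.22 (adjusted p = 0.0776), Ccng1 at -0.28 (adjusted p = 0.0765) and Cdkn1a at -0.21 (adjusted p = 0.138). Bax did not pass in the fit of the same libraries without the covariate either (-0.23, adjusted p = 0.103). The lost call of Bax can therefore not be ascribed to the feeder sum. Without knock-out replicate 1, which had the highest feeder sum, 4 members were lower in the knock-out: Ccng1 (-0.35, adjusted p = 5.42e-04), Aen (-0.27, adjusted p = 0.00599), Trp53inp1 (-0.24, adjusted p = 0.0229) and Bax. The genotype difference of the members at day 0, and the falls of Cdkn1a and Mdm2 from day 0 to day 2, therefore include libraries in which feeder markers differ. Their part in the fall was not tested.

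**Figure D4:**
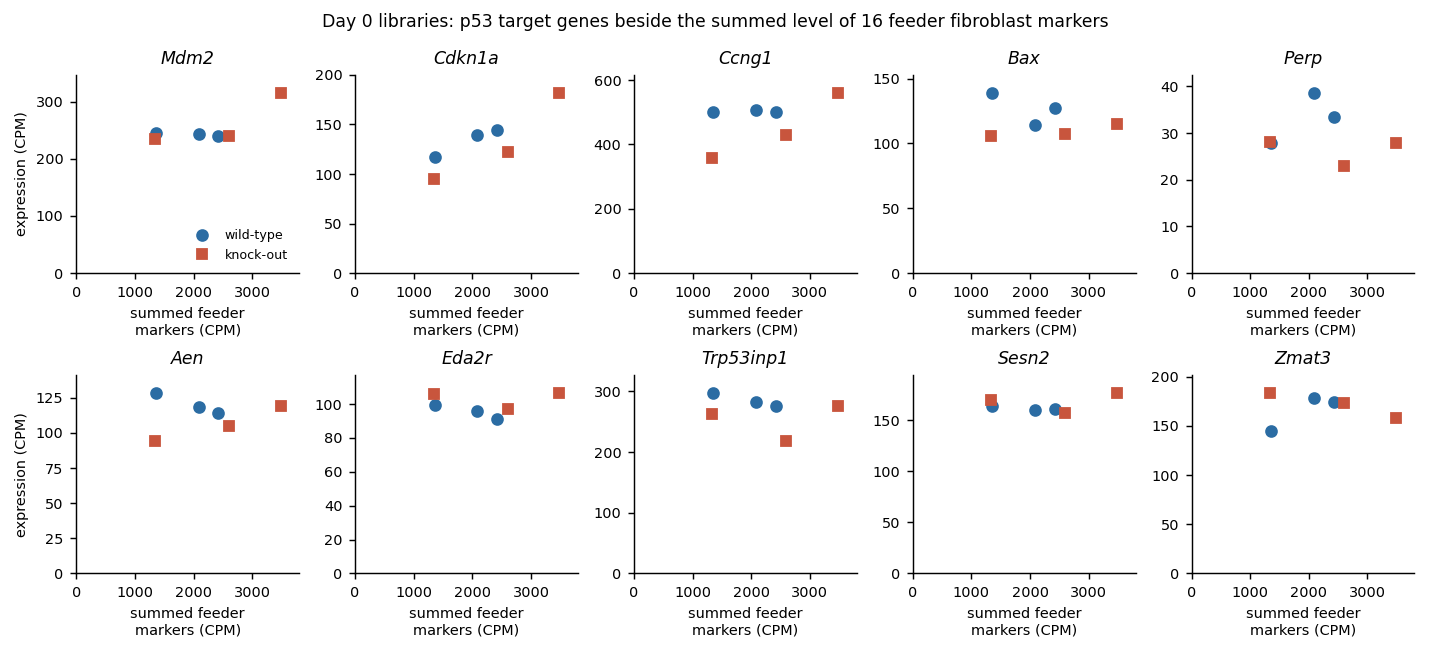
Expression of each member (CPM, y axis from 0) in the 6 day 0 libraries against the sum of 16 feeder fibroblast markers (CPM, x axis), with wild-type as blue circles and knock-out as red squares. Cdkn1a increases with the feeder sum within each genotype, and knock-out replicate 1, at 3485 CPM on the x axis, has the highest Cdkn1a, Mdm2 and Ccng1.

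Among p53 and its regulators, 16 of 17 listed genes were tested. Trp53 itself had 226 ± 13.9 CPM in wild-type and 294 ± 24.2 CPM in knock-out cells at day 4 (mean ± SD, n = 3). It was higher in the knock-out by 0.18 ± 0.061 at day 0 with an adjusted p of 0.0397, by 0.25 ± 0.062 at day 2 with 0.00292 and by 0.38 ± 0.062 at day 4 with 1.03e-05. At day 3 the value was 0.011 ± 0.062, with 0.905. The day 0 call was lost with the feeder covariate (0.14, adjusted p = 0.137), in a fit of only the groups compared (0.17, adjusted p = 0.156) and without any of 4 of the 6 libraries. Mdm4, the inhibitory partner of Mdm2, was higher by 0.32 ± 0.068, 0.36 ± 0.068 and 0.17 ± 0.068 at days 2, 3 and 4, the last lost without any of 5 libraries (adjusted p up to 0.121). Trp73, which encodes the family member p73, was higher by 0.57 ± 0.14 at day 2 and 1.37 ± 0.15 at day 4 (adjusted p = 4.39e-08), with 10.1 ± 3.15 CPM in wild-type and 26.2 ± 4.38 CPM in knock-out cells at day 4. Trp63 had at most 22 counts summed over the 3 libraries of a group and was not tested. In the list, 3, 7, 7 and 9 genes were higher in the knock-out at days 0, 2, 3 and 4 (10.6%, 16.2%, 20.8% and 26.3% of all genes), and 2, 1, 1 and 2 were lower (10.5%, 15.7%, 20.5% and 27.6%). These shares of all genes hold for the lists that follow too. Those lower at day 4 were Hipk2, a kinase of p53 (-1.31 ± 0.11), and Trp53inp2, an autophagy factor (-1.27 ± 0.16), and those higher included the checkpoint kinases Chek2 (0.51 ± 0.063) and Chek1 (0.49 ± 0.073). The list's median was 0.20 at day 4. With a library left out, 2 to 5 of its genes changed at day 0, 5 to 7 at day 3 and 7 to 11 at day 4.

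Of the other p53 targets for arrest and repair, 18 genes that were all tested, 1, 7, 6 and 8 were higher in the knock-out at days 0, 2, 3 and 4, and 3 were lower at day 3 and 4 at day 4. The median was 0.0068 at day 3 and 0.24 at day 4. Plk3, a stress-response kinase, was higher in the knock-out by 0.95 ± 0.13, 0.90 ± 0.13 and 0.53 ± 0.14 at days 2, 3 and 4. Pml, the organiser of nuclear bodies, was higher by 1.34 ± 0.14 at day 3 and 1.29 ± 0.15 at day 4, and Sfn, the 14-3-3 protein sigma, by 1.22 ± 0.13 at day 4. The genes lower in the knock-out at day 3 were Rprm (-1.18 ± 0.21), Plk2 (-0.56 ± 0.15) and Ppm1d (-0.19 ± 0.064). Those lower at day 4 were Ppm1d (-0.45 ± 0.064), a phosphatase that turns p53 signalling off, Btg2 (-0.54 ± 0.14), Rrm2b (-0.37 ± 0.14) and the repair factor Xpc (-0.35 ± 0.083). The day 3 call of Ppm1d was lost without any of 4 libraries (adjusted p up to 0.138). Rprm, a mediator of arrest in G2, was higher at day 4 (0.58 ± 0.21).

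Of 9 other apoptotic targets, 4 were higher and 3 lower in the knock-out than in wild-type cells at day 4, where 26.3% of all genes were higher and 27.6% lower. The higher ones were Ei24 (0.48 ± 0.062), Pidd1 (0.35 ± 0.095), Bbc3 (0.34 ± 0.093), which encodes the BH3-only protein PUMA, and Tnfrsf10b (0.28 ± 0.11), a death receptor. The lower ones were the death receptor Fas (-2.21 ± 0.42), Siva1 (-1.02 ± 0.090) and Apaf1 (-0.15 ± 0.058), the core of the apoptosome. Siva1 was lower by a similar amount at every day, from -0.93 at day 0 to -1.27 at day 3. It lies on distal chromosome 12 (chr12:112644679-112649149), and none of the 10 members lies on chromosome 12. At day 3 Bbc3 was higher (0.61 ± 0.094) and Siva1 and Fas (-1.33 ± 0.52) were lower in the knock-out, and at days 0 and 2 Ei24 was higher and Siva1 lower. In the other BCL2 family list, which shares Bbc3 and Pmaip1 with the apoptotic targets, 12 of 14 genes were tested. At day 4, 4 were higher in the knock-out, with Bcl2l11, which encodes the pro-apoptotic BIM, at 0.79 ± 0.086, Bok at 1.06 ± 0.13, Bid at 0.47 ± 0.065 and Bbc3. The 3 lower ones were Bcl2l1, which encodes the anti-apoptotic BCL-XL (-1.07 ± 0.091), and the pro-apoptotic Bad (-0.91 ± 0.11) and Bik (-1.01 ± 0.21). At days 0, 2 and 3 that list had 0, 1 and 5 genes higher and 2, 2 and 2 lower. At day 4 the counts of 4 and 3 of 12 are close to the shares over all genes.

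The other inhibitors of cyclin-dependent kinases differed from Cdkn1a in direction at day 3. Of 6 genes, 2, 5, 5 and 2 were higher in the knock-out at days 0, 2, 3 and 4, with a median of 0.68 at day 3. With a library left out the count was 1 to 4 at day 0 and 1 to 3 at day 4. Cdkn1b, which encodes p27, was higher at each day, by 0.43 ± 0.075, 0.21 ± 0.072, 0.39 ± 0.072 and 0.41 ± 0.071. Cdkn1c, which encodes p57, was higher by 1.05 ± 0.20 at day 2 and 1.35 ± 0.18 at day 3, and Cdkn2a, whose ARF product inhibits Mdm2, by 1.17 ± 0.22 and 1.57 ± 0.27. Cdkn2a is also counted in the list of p53 regulators. From day 0 to day 2 in wild-type cells, when feeders were left, 5 of the 6 fell (31.8% of all genes). Cdkn1b rose in that step. At day 3 the sum of feeder markers was 56.8 to 58.4 CPM in wild-type and 64.0 to 87.5 CPM in knock-out libraries. The part of feeder RNA in the values of these inhibitors was not tested. Cell cycle genes that p53 is known to lower through p21 and the DREAM repressor complex were tested for 17 of 18 genes, of which 8, 12, 5 and 13 were higher at days 0, 2, 3 and 4. The median was 0.15, 0.18, 0.072 and 0.30. Plk1, the mitotic kinase, was higher by 0.21 ± 0.047 at day 3 and 0.51 ± 0.047 at day 4, Mybl2 by 1.27 ± 0.081 at day 2, and Ccna2, cyclin A2, by 0.46 ± 0.044 at day 4. Birc5, which encodes survivin, was the listed gene that was lower, at day 3 (-0.27 ± 0.050) and day 4 (-0.15 ± 0.050).

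**Figure D5:**
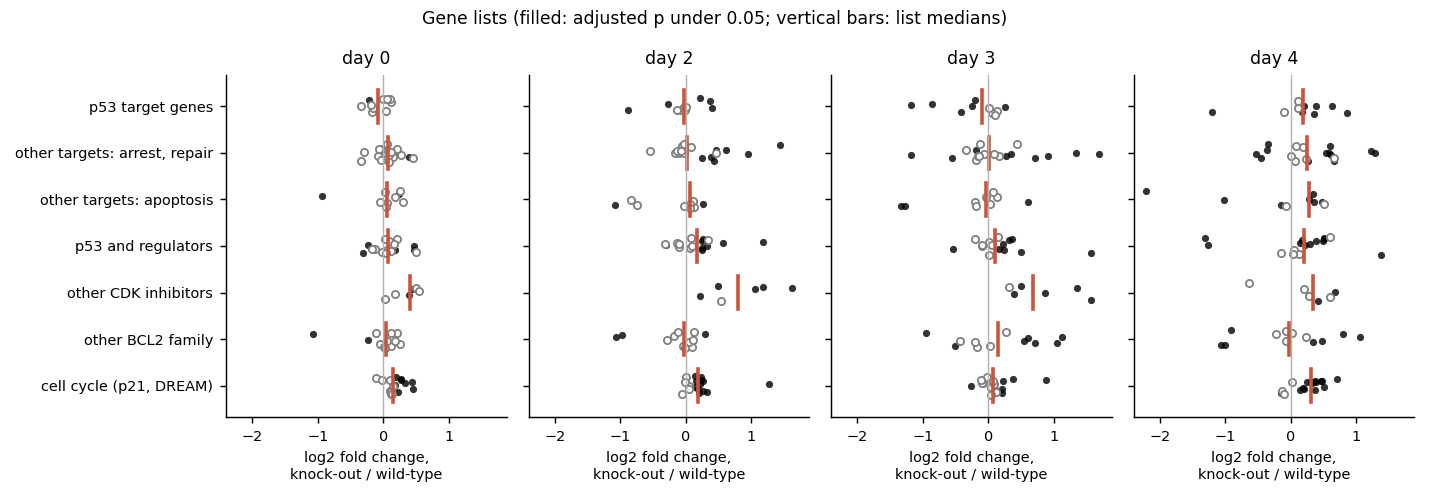
Log2 fold change between knock-out and wild-type cells (x axis) for each tested gene of the 10 members and 6 other lists at days 0, 2, 3 and 4; filled points have an adjusted p under 0.05 and red bars are list medians. At day 0 the medians are highest for the other CDK inhibitors (0.42) and the cell cycle genes (0.15), and at day 4 those of all lists but the other BCL2 family lie right of 0.

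Across the 8 group means the members did not follow a single course. As a description over 8 points that share libraries, Mdm2 and Eda2r had a Pearson r of 0.948 (log2 CPM), Eda2r and Sesn2 0.913, and Mdm2 and Sesn2 0.838. Ccng1 and Aen had 0.783. Perp had -0.760 with Sesn2, and Cdkn1a had 0.536 with Perp as its highest value among the members. Among 8963 tested genes whose mean reached 10 CPM, those most like Cdkn1a over the 8 group means were Arl15 (r = 0.970), Sat1 (0.961), Cops2 (0.958), Efemp1 (0.954) and Ghr (0.952). Sat1, the spermidine acetyltransferase, had a mean of 26.8 CPM at day 2 and 63.1 CPM at day 3 in wild-type cells, and 30.8 and 23.7 CPM in knock-out cells.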

How the data were processed

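Per the labels, 24 libraries (2 genotypes, 4 days, 3 replicates each) were made from polyadenylated RNA after RNeasy Plus extraction. The authors deposited whole-number read counts per gene, not normalised; per the submitters' processing notes Trimmomatic, HISAT2 and the build GRCm38.p6 were used. For versions, counting tool, annotation and strand, nothing was found in the labels, so reads of overlapping genes (Bax and Gm45808; Cdkn1a and the antisense model AC167363.2, with 0 counts) cannot be told apart from the members' own.

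CPM were scaled by TMM. edgeR 4.0.16 (R 4.3.3; glmQLFit and glmQLFTest, robust, 1 model over 8 groups) was run on the deposited counts after its filter on low counts, with Benjamini-Hochberg adjustment over 17144 genes for each of 14 comparisons and a threshold of 0.05. The error of a log2 fold change is its size divided by the square root of the F statistic. The procedure was run on simulated data for the day 0 genotype comparison only, so the tests of a difference between steps were not covered. Coordinates and exon lengths come from GENCODE M21 (GRCm38), in which 55141 of 55401 identifiers were found, and promoters from RefSeq (GRCm38.p6). Alternatives were DESeq2 1.42.0 (size factors, Wald test), no filter, only the groups compared, a replicate block, a feeder covariate at day 0 and leaving out each library. Same-numbered libraries deviated together (r over 0.1 in every pair) only for knock-out days 3 and 4 (r 0.220, 0.121 and 0.274), where the block changed no call of the knock-out step between them.

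The members and lists were chosen with earlier results of these data known. All members are named; of the 6 other lists, Trp53, Mdm4, Ppm1d, Trp63, Trp73 and up to 3 genes of lowest adjusted p in a comparison were to be named, and the 5 genes most like Cdkn1a. Gene names beyond these, among them Plk2, Btg2, Rrm2b, Xpc, Pidd1, Tnfrsf10b, Apaf1, Bok, Bik, Trp53inp2 and Chek1, were chosen after their values were seen, to complete small counts. The primitive streak marker T matched no gene name of the table.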

Additional observations from a re-analysis of the deposited data

Results flagged for a closer look

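For some p53 target genes, the change over a step or over the whole course differed between knock-out and wild-type cells by a test of the difference itself (edgeR's quasi-likelihood test, adjusted p under 0.05). They are given by comparison, each with its share of all genes. From day 3 to day 4, where 23.8% of all genes differed, the knock-out step exceeded the wild-type step by 0.97 (log2) for Cdkn1a, 0.60 for Eda2r, 0.53 for Ccng1, 0.53 for Sesn2 and 0.40 for Aen. From day 0 to day 4, where 36.7% of all genes differed, so that 5 of 10 members are not far from that share, it exceeded it by 0.75 for Eda2r, 0.57 for Sesn2, 0.38 for Bax and 0.38 for Aen, and for Perp the difference was -0.86. Day 0 libraries differ in feeder, primitive streak and endoderm markers, and day 3 and day 4 libraries in streak and endoderm markers. The part of these in the values was not tested.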

How the results depend on the processing

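Of 1790 recomputed values of the members, 44 lost the call and 51 gained it. No called value changed sign, and 49 values changed sign while past the threshold in neither fit. Counts of members that moved by over 1.5 times were these, and the cause was not tested. For the genotype difference at day 0 (1 member) the count was 2 without the filter on low counts, 0 with only the groups compared (fewer libraries to estimate the spread), 2 in the DESeq2 Wald test, 0 with the feeder covariate and 1 to 4 with a library left out. At day 2 (5 members) leaving out a library gave 3 to 4. For the knock-out step from day 3 to day 4 (2 members), only the groups compared gave 5. For the difference of the steps from day 0 to day 2 (0 members) the replicate block gave 1, Sesn2 (0.32, adjusted p = 0.0409), only the groups compared gave 1, and leaving out a library 0 to 2. For that from day 2 to day 3 (0 members) only the groups compared gave 1, the DESeq2 Wald test 1, and leaving out a library 0 to 2.

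Among all genes, only the groups compared gave 1587 for day 0 (3611 in the reported fit) and 3698 for the knock-out step from day 3 to day 4 (1986). Leaving out a library gave 1062 to 1504 for the latter, and 731 to 1645 for the difference of the steps from day 0 to day 2 (1259). Apart from knock-out days 3 and 4, replicate numbers did not meet the rule for pairing (r over 0.1 in every same-numbered pair): same-numbered pairs had a mean r of 0.036 against -0.017 for others. However, 17 of 24 libraries correlated best with their own number, more than the 1 in 3 of unrelated numbers, a hint of pairing from the data and not from the design. Among 140 values of the members the replicate block ended 1 call (Ccng1 at day 2) and added 5: the differences of Zmat3 from day 3 to day 4 (0.35, adjusted p = 0.0277), of Zmat3 (0.31, 0.0365) and Mdm2 (0.27, 0.0290) from day 0 to day 4 and of Sesn2 above, and the wild-type step of Eda2r from day 2 to day 3 (-0.18, 0.0339). DESeq2 size factors shifted the median of all genes by at most 0.046 (log2) in size. Of 270 recomputed counts for the other lists, chosen after seeing the data, 26 moved by over 1.5 times, and 15 of 180 values of Trp53, Mdm4, Ppm1d and Trp73 changed call. Trp63 was too low to test at this depth.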
